A study of Mus musculus with 10 samples.

Results

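Adipose progenitors carry surface proteins by which they are sorted and staged, and the transcripts of 10 such markers were followed here in mouse preadipocytes given bisphenol S. The 10 genes were chosen by name from what is known of the progenitor stages, with earlier results of these data already known. Pdgfra, Cd34, Ly6a and Thy1 stand for the adipose stroma in general, and Dpp4, Pi16 and Cd55 for interstitial progenitors. Icam1 and Vcam1 stand for committed preadipocytes and F3 for Areg cells. These markers are 10 of the 32903 genes with a transcript in the deposited table. All 10 were among the 14597 genes with enough counts to be tested. RNA came from preadipocytes of the inguinal subcutaneous fat (iSAT) of male mice, genotype WT C57 BL6. The control group was 5 libraries of cells given the vehicle DMSO, and the treated group was 5 libraries of cells given BPS at 2.5 µM dissolved in DMSO, so DMSO was common to both. BPS stands for bisphenol S, which replaces bisphenol A in many plastics and resembles it in structure. The exposure time, the passage of the cells, any sorting, and the source of the replicates (different mice, or dishes of the same cells) are not given in the sources used here, and p-values therefore measure only the spread between these libraries. By its title, the study asked about reactive oxygen species in the adipogenic action of bisphenols.

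Fat depots renew their adipocytes from fibroblast-like cells that express PDGF receptor alpha. In mouse inguinal fat, cells bearing DPP4 lie in the interstitial sheath around the tissue, renew themselves and can give rise to ICAM1-bearing committed preadipocytes, which enter adipogenesis readily. A further population bearing CD142, the protein of F3, has been described as restraining adipogenesis in its neighbours and is called Areg (adipogenesis regulator). Sorting of these states uses the proteins at the cell surface, whereas only their transcripts were measured here. In bulk RNA, fewer cells of a type and less RNA per cell cannot be told apart.

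Libraries held 37920689 to 42717227 estimated counts in total, which did not separate the groups (exact two-sided permutation test, p = 0.452). The library numbers in the labels place all DMSO libraries ahead of the BPS libraries, so a batch following that order cannot be told apart from the treatment. Levels are given in CPM, the counts of a gene relative to all counts assigned to genes in its library, with TMM factors correcting for the makeup of each library. Fold changes are BPS over DMSO on the log2 scale with their standard error (SE), tested with edgeR's quasi-likelihood test, and p-values were adjusted by Benjamini and Hochberg over all genes tested. A gene is said to rise or fall only at an adjusted p under 0.05.

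Of the 10 markers, Cd34 and Thy1 rose under BPS, Vcam1 fell, and the other 7 did not pass the test. Over all 14597 genes, 4.88% were called, 3.06% higher and 1.82% lower. Among genes with a mean of at least 30 CPM, where all 3 called markers lie, 8.32% were called. Log2 differences of the 3 called markers were small, at 0.278 for Cd34, 0.191 for Thy1 and -0.231 for Vcam1, which correspond to changes of 21.3%, 14.1% and -14.8%. The median log2 difference of the 10 markers was 0.05, against 0.000393 over all tested genes, and 7 of the 10 were above 0.

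The markers covered a wide range of abundance. Compared per kilobase of transcript, Thy1 led in DMSO with 489 CPM per kilobase, followed by Ly6a with 194, Pdgfra with 137, F3 with 120 and Vcam1 with 59.9. Cd34 and Icam1 were lower, at 18.1 and 15.1 CPM per kilobase. Transcripts of the interstitial markers were scarce: Cd55 had 0.796, Pi16 0.507 and Dpp4 0.465 CPM per kilobase. Pan-stromal markers and the Areg marker F3 thus stood well above the 3 interstitial markers in these cultured cells.

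**Figure D1:**
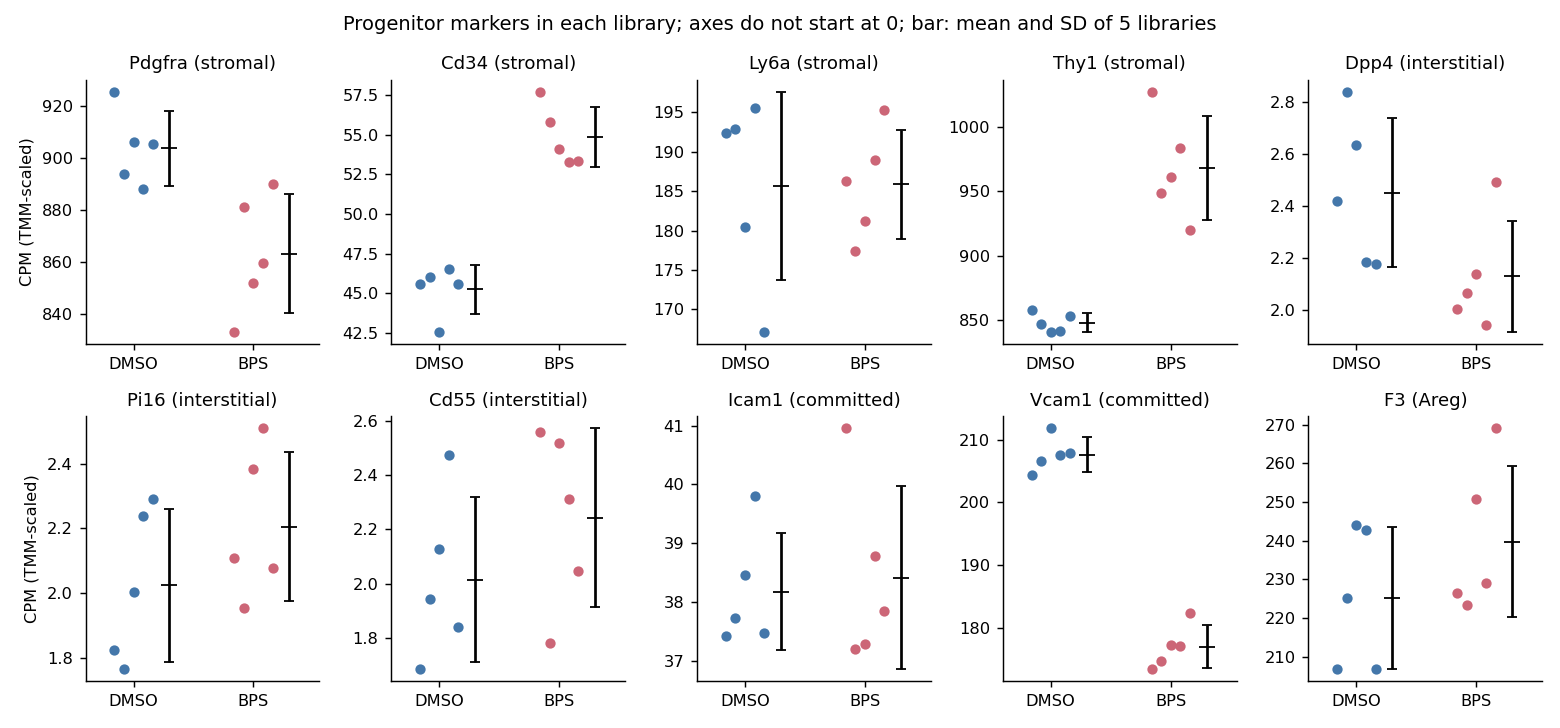
CPM (vertical axes, each on its own scale and not starting at 0) of the 10 markers in each DMSO and BPS library (horizontal axis), with 1 point per library and a bar for the mean and SD of 5 libraries. The groups are apart for Cd34, Thy1 and Vcam1 and overlap for the other 7 markers.

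**Figure D2:**
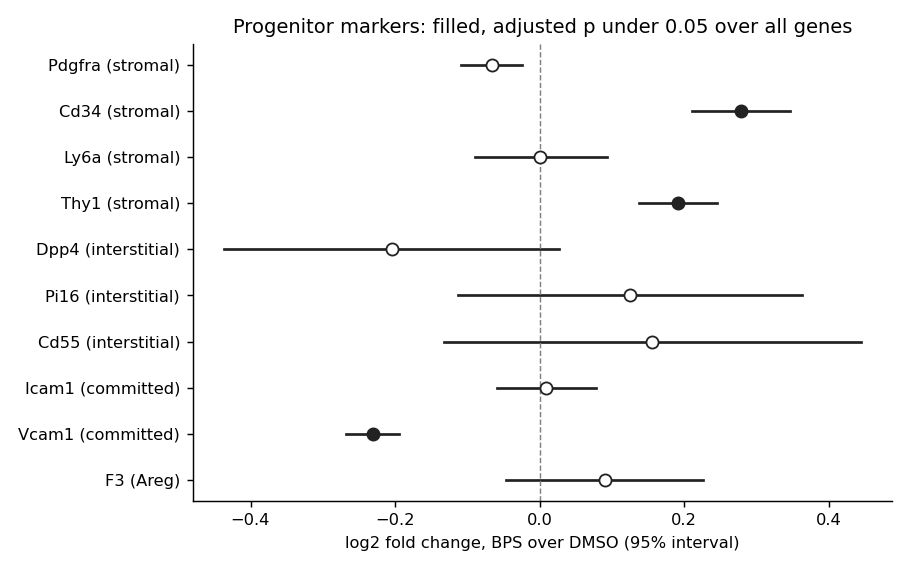
Log2 fold change of BPS over DMSO (horizontal axis) for each of the 10 markers (vertical axis), with its 95% interval as a line. Filled points, Cd34, Thy1 and Vcam1, had an adjusted p under 0.05 over all genes tested, and the intervals of the scarce markers Dpp4, Pi16 and Cd55 are the widest.

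Cd34 encodes a heavily glycosylated sialomucin that marks stromal progenitors in fat as well as blood-forming stem cells and endothelium. Its level was 45.57, 45.99, 42.54, 46.51 and 45.58 CPM in DMSO replicates 1 to 5 and 57.7, 55.78, 54.09, 53.3 and 53.36 CPM in BPS replicates 1 to 5. Every BPS library was above every DMSO library, as for 6.90% of all tested genes in either direction. Cd34 averaged 45.24 ± 1.56 CPM over the 5 DMSO libraries and 54.85 ± 1.88 CPM over the 5 BPS libraries (mean ± SD), and the log2 fold change was 0.278 (SE 0.031, 95% interval 0.211 to 0.346, adjusted p = 0.000428).

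Cd34 transcripts come in 2 forms, which are shown here because the table counts each separately. The long form encodes the full cytoplasmic tail. The short form keeps extra bases at the start of its last exon and meets a stop codon there, so that most of the tail is missing. In the GENCODE M21 models (GRCm38, forward strand), the last shared exon ends at position 194959230 of chr1, and the last exon is chr1:194959936-194961279 in the long form and chr1:194959780-194961279 in the short form, which takes in 156 more bases. The coding sequence has 382 codons in the long form and 325 in the short form, a difference of 57. The sequences below run 5′ to 3′ in the sense of the gene, with the 15 bases that end the shared exon in lower case and the 15 bases that follow them in each form in capitals. In the short form the last 3 of these are the stop codon. The bases in capitals in the long form also lie in the short transcript, beyond its stop codon, so the long form is told by the junction.
Cd34 long form: acaggagaaaggctgGGTGAAGACCCTTAT
Cd34 short form: acaggagaaaggctgGAGCTGGAACCTTGA

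The long form held 1115, 1094, 1062, 988 and 1062 estimated counts in DMSO replicates 1 to 5 and 1389, 1172, 1175, 1132 and 1189 in BPS replicates 1 to 5. Once scaled for depth, its groups did not overlap, as for 2.54% of all tested transcripts, and its log2 fold change was 0.23 (SE 0.049). The short form held 560, 704, 615, 780 and 570 estimated counts in DMSO and 912, 771, 822, 759 and 738 in BPS, with a log2 fold change of 0.356 (SE 0.084). Its scaled values overlapped, since DMSO replicate 4 (19.13 CPM) was above BPS replicate 5 (19.07 CPM). Neither form passed the test over all 37588 transcripts (edgeR, adjusted p = 0.141 for the long form and 0.197 for the short form), a test in which 0.335% of transcripts were called. Without DMSO replicate 4, the short form passed, at 0.431 on the log2 scale (SE 0.062, adjusted p = 0.0466). The long form made up 62.3 ± 4.19% of Cd34 counts in DMSO and 60.2 ± 1.04% in BPS (SD, n = 5 each), a difference of -2.13 percentage points that was within the spread of the libraries (exact two-sided permutation test, p = 0.294). kallisto splits reads from shared exons between such models, so the division between forms is less certain than their sum.

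**Figure D3:**
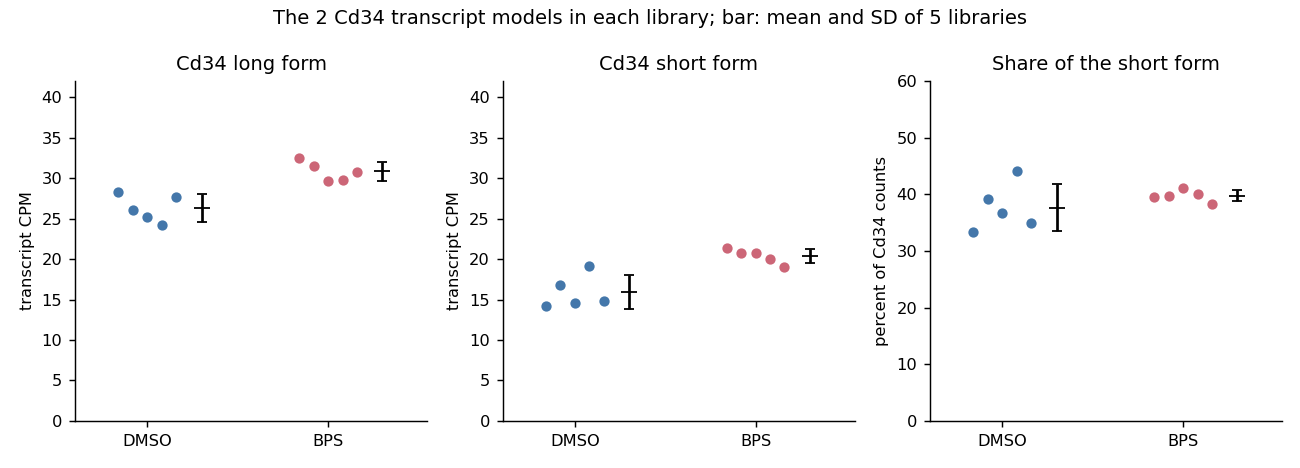
The long and the short Cd34 transcript in each DMSO and BPS library, as transcript CPM (left and middle, vertical axes from 0), and the short form as a percentage of all Cd34 counts (right, vertical axis from 0), with the mean and SD of 5 libraries as bars. Both forms sit higher in BPS, with 1 overlapping library in the short form, while the shares of the 2 groups overlap.

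Thy1, which encodes the GPI-anchored glycoprotein CD90 of fibroblasts and mesenchymal stromal cells, was the most abundant marker per kilobase. It stood at 857.6, 846.8, 841.2, 841.3 and 853.6 CPM in DMSO replicates 1 to 5 and at 1027, 948.6, 961.1, 983.2 and 920.2 CPM in BPS replicates 1 to 5. The lowest BPS library was above the highest DMSO library, and the BPS libraries were more widely spread. Thy1 averaged 848.1 ± 7.33 CPM in DMSO against 968.1 ± 40.1 CPM in BPS (mean ± SD of 5 libraries), which gave 0.191 on the log2 scale (SE 0.025, 95% interval 0.137 to 0.245, edgeR, adjusted p = 0.00129). Thy1 has a single transcript model in the table, and tested as a transcript it passed as well (log2 fold change 0.192, SE 0.026, adjusted p = 0.0174 over all transcripts). This transcript call held without BPS replicate 1, 2 or 5 and was lost in the other 7 fits that left out a library, with adjusted p up to 0.0687.

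Pdgfra, the receptor tyrosine kinase that defines the stromal progenitor pool, showed a small difference that missed the threshold. DMSO replicates 1 to 5 had 925.5, 893.9, 906.1, 888 and 905.3 CPM, and BPS replicates 1 to 5 had 833.2, 881.4, 851.9, 859.9 and 890 CPM. The groups overlapped, through BPS replicate 5, which was above DMSO replicate 4. The log2 fold change was -0.066 (SE 0.019, 95% interval -0.109 to -0.024, adjusted p = 0.0777 by edgeR). Without BPS replicate 5 it was -0.0774 with an adjusted p of 0.0483. Scaling by library size alone and the DESeq2 Wald test also took Pdgfra past the threshold, with adjusted p of 0.0247 and 0.0158.

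Ly6a encodes Sca-1, a GPI-anchored protein of mouse stem and progenitor cells. It had 192.4, 192.9, 180.4, 195.6 and 167.1 CPM in DMSO and 186.3, 177.4, 181.2, 189 and 195.3 CPM in BPS. The groups overlapped throughout, with a log2 difference of 0.001 (SE 0.042, 95% interval -0.09 to 0.093, adjusted p = 0.992 by edgeR), and the sign of this value changed between scalings and when single libraries were left out. Ly6a lies in a family of closely related genes, and reads shared with a relative could be divided between them. Its 6 transcript models were led by a model with 84.8 ± 3.92% of its counts in DMSO and 87.7 ± 3.05% in BPS (SD, n = 5 each).

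The 4 stromal markers therefore did not move together. Their ratios were set against each other within each library, as part of 10 pairs of markers of the same class that were chosen after their values had been seen. The log2 ratio of Pdgfra to Cd34 was 4.321 ± 0.061 in DMSO and 3.976 ± 0.077 in BPS (SD, n = 5 each), a difference of -0.344 (SE 0.044; exact two-sided permutation test, p = 0.00794, the smallest this design allows, adjusted p = 0.0198 over the 10 pairs). Pdgfra to Thy1 differed by -0.256 (SE 0.043) and Cd34 to Ly6a by 0.275 (SE 0.056), each with an adjusted p of 0.0198 by the same permutation test. Cd34 to Thy1 differed by 0.088 and Ly6a to Thy1 by -0.187, with adjusted p of 0.0397 and 0.0317. In the pair Pdgfra to Ly6a, the difference of -0.069 was within the spread of the libraries (adjusted p = 0.265 by permutation). When each library was left out in turn, the Cd34 to Thy1 call held without DMSO replicate 2, DMSO replicate 4 or BPS replicate 4 and was lost in the other 7 fits. Ly6a to Thy1 held without DMSO replicate 5 or BPS replicate 5 and was lost in the other 8, with adjusted p up to 0.0794.

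Of the committed preadipocyte markers, Vcam1, an adhesion molecule of the immunoglobulin superfamily that binds the integrin VLA-4 on leukocytes, fell. It had 204.3, 206.6, 211.8, 207.6 and 207.9 CPM in DMSO replicates 1 to 5 and 173.4, 174.6, 177.2, 177.1 and 182.3 CPM in BPS replicates 1 to 5. All BPS libraries were below all DMSO libraries, and the gap between the groups was wider than the range within either. Vcam1 averaged 207.7 ± 2.7 CPM in DMSO against 176.9 ± 3.4 CPM in BPS (mean ± SD of 5 libraries), and the log2 fold change was -0.231 (SE 0.017, 95% interval -0.268 to -0.194, edgeR, adjusted p = 2.37e-05). By p-value Vcam1 ranked 10 among all tested genes, Cd34 45 and Thy1 72. Vcam1 has 1 transcript model in the table, which also fell when tested as a transcript (log2 fold change -0.23, SE 0.016, adjusted p = 0.00102).

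Icam1 encodes the adhesion molecule that serves as the sorting marker of committed preadipocytes and as a ligand of leukocyte integrins. Its libraries had 37.43, 37.73, 38.46, 39.8 and 37.48 CPM in DMSO and 40.95, 37.2, 37.3, 38.78 and 37.86 CPM in BPS. The groups overlapped, and the log2 difference of 0.009 had a 95% interval of -0.059 to 0.078 (SE 0.031, adjusted p = 0.914 by edgeR). This interval lies above the whole interval of Vcam1. Within libraries, the log2 ratio of Icam1 to Vcam1 was higher in BPS by 0.24 (SE 0.036, exact two-sided permutation test, p = 0.00794, adjusted p = 0.0198 over the 10 pairs). This pair was chosen after its values had been seen, and the groups were already apart for Vcam1 alone. The ratio therefore describes the difference between the 2 committed preadipocyte markers and is no independent test of it.

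Icam1 and Vcam1 are both textbook targets of NF-kB, and Icam1 also responds to interferon through STAT proteins. Promoters from the RefSeq table (GRCm38.p6) were found for 7 of the 10 markers, and those of Vcam1, Thy1 and Ly6a are named only. The Icam1 promoter is shown because it was the only marker promoter with a match to either of the motifs searched for these factors, GGAAATTCC for NF-kB and TTCNNNGAA for STAT, on either strand of the 250 bases before the start. For NF-kB this was a fixed sequence with no free positions. Other NF-kB sites were not searched for, so the remaining promoters cannot be said to lack them. It is given 5′ to 3′ on the forward strand, chr9:21015690-21015939, with the NF-kB motif (positions -153 to -145 from the start) and then the STAT motif (positions -42 to -34) in capitals.
Icam1 promoter: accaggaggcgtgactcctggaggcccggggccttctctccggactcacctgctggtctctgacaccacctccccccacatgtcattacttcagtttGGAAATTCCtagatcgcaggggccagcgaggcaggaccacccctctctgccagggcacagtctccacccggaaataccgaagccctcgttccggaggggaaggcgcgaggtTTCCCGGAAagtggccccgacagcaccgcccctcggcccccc

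Among all 32851 promoters of this table, 0.286% held this fixed NF-kB sequence and 7.02% the looser STAT motif within the same 250 bases. A further motif, GCGTG, the core bound by the aryl hydrocarbon receptor, was present in 28.2% of all promoters and in those of Cd55 and Icam1 among the 7 markers. These matches describe the letters in the window and show no binding.

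The 3 interstitial progenitor markers Dpp4, Pi16 and Cd55 were near the limit of what these libraries resolve, unlike several other genes of this class given below. Dpp4, a membrane-bound peptidase that marks the interstitial progenitors, had 2.421, 2.839, 2.636, 2.185 and 2.178 CPM in DMSO and 2.006, 2.068, 2.14, 1.945 and 2.491 CPM in BPS, from 69 to 111 counts per library. BPS replicates 1 to 4 were below the whole DMSO group and BPS replicate 5 was within it. The log2 difference was -0.204 (SE 0.106, 95% interval -0.436 to 0.027, adjusted p = 0.335 by edgeR). Among genes with a mean of 1 to 5 CPM, the level of Dpp4, Pi16 and Cd55, 2.61% were called. A fall of the size seen for Vcam1 lies inside the Dpp4 interval and was not resolved at this depth.

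Pi16, a secreted or membrane-tethered protein of fibroblasts, had 1.823, 1.765, 2.003, 2.237 and 2.29 CPM in DMSO and 2.107, 1.953, 2.383, 2.509 and 2.076 CPM in BPS. Cd55, the GPI-anchored decay-accelerating factor that limits complement, had 1.687, 1.944, 2.129, 2.474 and 1.843 CPM in DMSO and 2.558, 1.781, 2.519, 2.311 and 2.048 CPM in BPS. Groups overlapped for both genes. Log2 differences were 0.125 (95% interval -0.113 to 0.363) for Pi16 and 0.155 (95% interval -0.133 to 0.444) for Cd55, with edgeR adjusted p of 0.608 and 0.595. The log2 ratio of Dpp4 to Pi16 differed by -0.325 and that of Dpp4 to Cd55 by -0.353, neither of which passed the permutation test (adjusted p = 0.139 and 0.0907). Cd55 has a close relative in the mouse genome, Cd55b, with which reads could be shared.

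Transcript models of Dpp4 showed an uneven division. Its leading model held 56.1 ± 9.36% of the gene's counts in DMSO and 66.6 ± 3.84% in BPS (SD, n = 5 each), 10.5 percentage points more (exact two-sided permutation test, p = 0.0556, adjusted p = 0.333 over 6 genes with several models). When that model was tested alone, its log2 difference was 0.0331, the opposite sign to the gene. The other 5 genes with several models, Pdgfra, Cd34, Ly6a, Pi16 and Cd55, had differences in the leading share of -2.13 to 2.93 percentage points, none past the test (adjusted p of 0.476 to 0.548 by permutation). Of 29 models of the 10 markers, 20 were tested and 2 were called, those of Thy1 and Vcam1.

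F3 encodes tissue factor, CD142, the cell-surface trigger of coagulation and the sorting marker of Areg cells. It had 206.9, 225.3, 244.1, 242.9 and 207 CPM in DMSO and 226.5, 223.5, 250.9, 229.1 and 269 CPM in BPS. The groups overlapped, with DMSO replicates 3 and 4 above 3 of the BPS libraries. Means of 225.2 ± 18.3 CPM and 239.8 ± 19.6 CPM (± SD of 5 libraries) gave a log2 difference of 0.09 (SE 0.062, 95% interval -0.046 to 0.226, adjusted p = 0.494 by edgeR).

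The other genes of these states were read from lists of 4 progenitor classes, with 37 genes of which 35 were tested. Of these, 7 rose and 1 fell, or 22.9%, against 4.88% of all tested genes. Among all genes with a mean of at least 30 CPM, 8.32% were called. The share was 22.2% in the 4 partner and signalling lists and 17.6% in the 6 lists of other cell types. It was therefore not particular to progenitor genes. All 14 lists together had 17 calls among 79 tested genes, or 21.5%. The lists were assembled with earlier results of these data known, and their counts are a description.

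Among 9 tested interstitial progenitor genes, 1 rose (median log2 difference 0.007), against 3 by the DESeq2 Wald test, which called 6.50% of all genes, 3.88% higher. The gene that rose by edgeR was Anxa3, a calcium-dependent phospholipid-binding protein, with 160.2, 159.1, 158.8, 159.2 and 163.5 CPM in DMSO and 185.7, 179.7, 181.9, 180.1 and 181.1 CPM in BPS. All its BPS libraries were above all DMSO libraries (log2 fold change 0.182, SE 0.015, adjusted p = 5.18e-05). Fbn1 (fibrillin, a microfibril protein) and Cd248 (endosialin), the genes of this list with the highest level per kilobase, had log2 differences of -0.013 and 0.007 (adjusted p = 0.901 and 0.889). Their means over all 10 libraries were 357 and 202 CPM per kilobase. Mfap5 had 171 and Anxa3 107, while Wnt2, Creb5 and Pcolce2 had 1.24, 1.01 and 0.405. Genes of this class thus differed widely in level, and the scarcity of Dpp4, Pi16 and Cd55 does not describe them all.

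Of 11 tested committed preadipocyte genes, 2 rose (median 0.048). Fabp4, the fatty acid binding protein of adipocytes, had 3.509, 3.99, 3.955, 3.87 and 3.714 CPM in DMSO and 4.539, 4.682, 5.146, 4.961 and 4.622 CPM in BPS (log2 fold change 0.33, SE 0.066, adjusted p = 0.0154). Its level was low in both groups, at 129 to 190 counts per library. Col15a1, a basement membrane collagen, rose by 0.115 on the log2 scale (SE 0.028, adjusted p = 0.0368); when single libraries were left out, this call held only without BPS replicate 1 or 2, and adjusted p reached 0.0892. Col4a1, with Col15a1 the gene of this list with the highest level per kilobase, had a log2 difference of 0.06 (SE 0.022, adjusted p = 0.156 by edgeR). Pparg, the master regulator of adipocyte differentiation, had a log2 difference of -0.005 (SE 0.047, adjusted p = 0.979). Pparg was picked out here after its value was seen, as it stands for commitment itself.

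Areg genes split in both directions, with 2 of 7 tested higher and 1 lower (median 0.098). Fmo2, a flavin-containing monooxygenase, had 5.74, 5.755, 6.211, 6.054 and 7.456 CPM in DMSO and 10.21, 8.157, 8.017, 8.907 and 13.53 CPM in BPS (log2 fold change 0.646, SE 0.14, adjusted p = 0.0223). Its adjusted p was 0.0538 to 0.0583 without DMSO replicate 1, 2 or 4. BPS replicate 5 was the highest for Fmo2 and also the highest for F3. In DMSO this was not so: replicate 5 was the highest for Fmo2 but had 207 CPM of F3, next to the lowest value of 206.9 CPM. Vit, which encodes the extracellular matrix protein vitrin, had 42, 46, 55, 48 and 39 counts in DMSO and 8, 5, 19, 13 and 18 counts in BPS (log2 fold change -1.82, SE 0.267, adjusted p = 0.0029). With accessions matched to their exact version, Vit had -1.72 and an adjusted p of 0.284. The groups were apart for both genes, and the change in Vit, though at low counts, was far larger than that of any of the 10 markers. Mgp, matrix Gla protein, rose by 0.122 (adjusted p = 0.037), a call that held only without BPS replicate 1 or 5 when single libraries were left out (adjusted p up to 0.0869), and Clec11a had a log2 difference of 0.081 (adjusted p = 0.388).

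Of 8 further stromal progenitor genes, 2 rose (median 0.063). They were Itgb1, the integrin beta 1 chain, at 0.079 (SE 0.016, adjusted p = 0.017), and the tetraspanin Cd9 at 0.126 (SE 0.028, adjusted p = 0.0242), whose call was lost without DMSO replicate 1, 2 or 3 or BPS replicate 3 or 5 (adjusted p up to 0.066). Dcn (decorin, a matrix proteoglycan) had a log2 difference of 0.01 (adjusted p = 0.888).

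**Figure D4:**
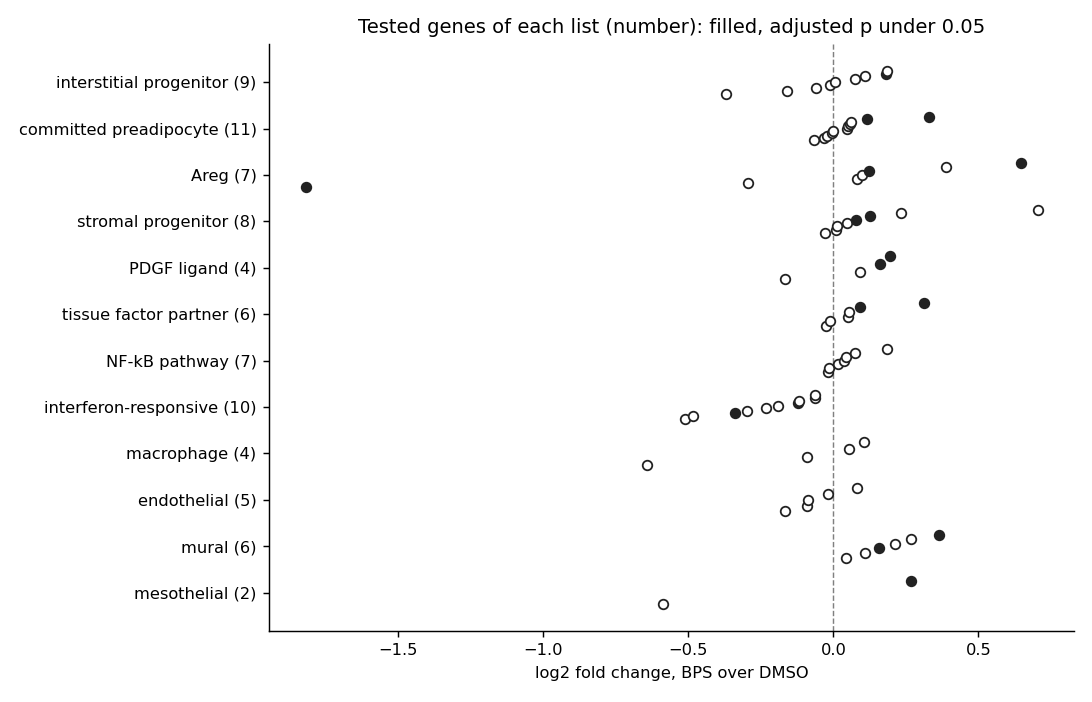
Log2 fold change of BPS over DMSO (horizontal axis) for each tested gene of 12 lists of progenitor, partner, signalling and other cell type genes (vertical axis, with the number tested in brackets); filled points had an adjusted p under 0.05. All 10 interferon-responsive genes lie below 0 and all 6 mural genes above 0, while the progenitor lists fall on both sides of 0.

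Partners of the markers were read next. Of 4 PDGF ligand genes, 2 rose, Pdgfa and Pdgfc, both of whose proteins activate the receptor encoded by Pdgfra. Pdgfa went from 18.88, 19.21, 20.18, 19.16 and 18.74 CPM in DMSO to 22.17, 21, 20.8, 22.24 and 21.42 CPM in BPS (log2 fold change 0.162, SE 0.033, adjusted p = 0.017). Pdgfc had 24.13, 24.2, 25.15, 26.09 and 24.52 CPM in DMSO and 30.07, 28.46, 26.76, 29.34 and 27.54 CPM in BPS (log2 fold change 0.196, SE 0.037, adjusted p = 0.0118). Both were higher in every BPS library than in any DMSO library, while the receptor Pdgfra had the small negative difference given above.

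Among 6 tested partners of tissue factor, F2r and F2rl1 rose (median 0.053). F7 and F10 of the same list had too few counts to be tested, at 1 to 8 and 6 to 17 counts per library. F2r, the thrombin receptor PAR1, was higher by 0.091 on the log2 scale (SE 0.015, adjusted p = 0.00648). F2rl1, the receptor PAR2 that tissue factor complexes can cleave, had 0.313 (SE 0.078, adjusted p = 0.0431), with overlapping groups and a call that held only without DMSO replicate 1 or BPS replicate 5 (adjusted p up to 0.0959). Tfpi2, a protease inhibitor related to the inhibitor of the tissue factor pathway, had a log2 difference of -0.026 (adjusted p = 0.702).

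Signalling genes tied to the adhesion molecules followed. None of 7 NF-kB pathway genes was called by edgeR, DESeq2 or limma-voom (median log2 difference 0.036). Tnfaip3, an inhibitor of NF-kB signalling named after its values were seen, was the 1 gene of the list with an unadjusted p under 0.05, at 0.184 (SE 0.051, adjusted p = 0.064 by edgeR). Rela and Nfkb2, subunits of NF-kB, had 0.043 and 0.017 (adjusted p = 0.413 and 0.737). All 10 interferon-responsive genes had a negative difference (median -0.211), and 2 of them fell, against 5 by the DESeq2 Wald test, which called 2.62% of all genes lower. Stat2, a transcription factor of type I interferon signalling, had 118.6, 117, 130.4, 128.7 and 111.4 CPM in DMSO and 91.76, 85.05, 89.35, 105.2 and 108 CPM in BPS (log2 fold change -0.339, SE 0.067, adjusted p = 0.0154). Irf1 fell by 0.123 on the log2 scale (SE 0.029, adjusted p = 0.0353) with overlapping groups, a call that held only without DMSO replicate 3 or BPS replicate 1 (adjusted p up to 0.0843). Isg15, a ubiquitin-like protein induced by interferon, had -0.299 (adjusted p = 0.0614) and Bst2, the tethering factor tetherin, -0.063 (adjusted p = 0.691). The summed level of the 10 interferon-responsive genes was 548.7 to 636 CPM in DMSO and 456.1 to 549.4 CPM in BPS, where the ranges touch. Its part in the lower level of Vcam1 was not tested.

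Cells of other kinds were checked because Cd34, Thy1, Vcam1 and Icam1 are also expressed by endothelium, mural cells or leukocytes. Mural genes, those of pericytes and smooth muscle, had 2 of 6 higher, with all 6 above 0 (median 0.183). Mcam, the adhesion molecule CD146, rose by 0.365 (SE 0.073, adjusted p = 0.0158), and the proteoglycan gene Cspg4 rose by 0.156 (SE 0.04, adjusted p = 0.0467), the latter call holding only without BPS replicate 1 or 2 (adjusted p up to 0.104). The summed mural level was 77.73 to 82.62 CPM in DMSO and 85.1 to 98.63 CPM in BPS, so the groups did not overlap. Most of this sum came from the 2 called genes, Cspg4 (mean 39.06 CPM in DMSO, 43.52 in BPS) and Mcam (20.12 and 25.92). The groups overlapped for Rgs5, Notch3, Kcnj8 and Myh11, with adjusted p of 0.358 to 0.746 by edgeR. The part of mural cells in the rise of Cd34 and Thy1 was not tested.

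Endothelial and macrophage lists had no calls among 5 and 4 tested genes by edgeR, DESeq2 or limma-voom, and 0 genes at an unadjusted p under 0.05 (edgeR). Endothelial genes summed to 17.32 to 22.71 CPM in DMSO and 16.7 to 22.5 CPM in BPS. Macrophage genes summed to 9.405 to 15.34 CPM in DMSO and 10.34 to 18.18 CPM in BPS. The groups overlapped in both sums. Among macrophage genes, Lyz2 had 240 to 467 counts per library and Cd68 had 88 to 143. Their log2 differences were 0.053 and 0.107 (adjusted p = 0.923 and 0.691 by edgeR). Csf1r had 0 counts in all libraries, which allows up to 3 counts in each. Tek and Cdh5, the endothelial genes with the highest level per kilobase, had log2 differences of -0.017 and -0.086 (adjusted p = 0.932 and 0.852 by edgeR). Of 2 tested mesothelial genes, Krt19 rose by 0.268 (adjusted p = 0.0367 by edgeR). This call was lost without DMSO replicate 1, 3 or 4 or BPS replicate 2, 3 or 4 (adjusted p up to 0.0884). The other, Wt1, had a log2 difference of -0.588 (SE 0.216, adjusted p = 0.155 by edgeR) at 14 to 41 counts per library. The defining genes Msln and Upk3b had 0 counts in every library. Mature adipocyte genes summed to 0.0559 to 0.2028 CPM in DMSO and 0.0502 to 0.1691 CPM in BPS, and epithelial genes to at most 0.4353 CPM. The libraries, labelled preadipocyte, thus carried the stromal markers Pdgfra, Thy1 and Ly6a at high levels and the mature adipocyte genes Adipoq, Plin1 and Cidec at 0 to 5 counts each.

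The genes with the pattern most like that of Vcam1, the marker with the smallest p, were sought over the 10 libraries by Pearson's r of log2 (CPM + 0.5). They were Cyp1b1, a cytochrome P450 induced through the aryl hydrocarbon receptor, with r = 0.992, Xdh, xanthine dehydrogenase, with r = 0.975, and Dpep1, a membrane dipeptidase, with r = 0.974. All 3 fell, with log2 fold changes of -0.641, -0.411 and -0.558 (edgeR, adjusted p = 1.59e-05, 9.18e-07 and 2.23e-05). Much of such a correlation is the difference between the groups that these genes share. After the group means were taken out, r was 0.822 for Cyp1b1, -0.148 for Xdh and 0.371 for Dpep1. These values come from the libraries on which the genes were chosen and are a description.

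Reads from the opposite strand could touch several of these counts. The kit is directional, but whether the counting used the strand is not given in the sources used here. In GENCODE M21, exons of Pdgfra, Cd34, Dpp4, Pi16, Cd55, Icam1 and Vcam1 overlap exons of a transcript on the other strand, by 61 bases in Vcam1 and 511 in Icam1, and those of Ly6a, Thy1 and F3 do not.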

How the data were processed

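The deposited values are estimated counts of 107384 RefSeq transcripts in 10 libraries, made by the authors with kallisto 0.42.4, per the submitters' processing notes. Its index, genome build and strand setting are not given in the sources used here. Each of the 10 columns was assigned through the library code of its sample. Accessions were matched without version to a RefSeq gene table (GRCm38.p6), which placed 86722 transcripts in 32903 genes with 93.1% of the counts. The other 20662 transcripts (6.9%) were left out of the gene tests. Counts were summed per gene and rounded.

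BPS was compared with DMSO without covariates by edgeR 4.0.16 in R 4.3.3 (filterByExpr, TMM factors between 0.9854 and 1.008, quasi-likelihood test, Benjamini-Hochberg adjustment over 14597 genes). The common biological coefficient of variation was 0.0588. The SE is the unshrunken log2 fold change over the square root of F. CPM of transcripts are relative to all transcripts, those without a gene included, so they do not add up to the CPM of genes. Transcript shares and pair ratios (0.5 counts added) were compared by exact permutation over libraries. Levels per kilobase used GENCODE M21 lengths. Within-group pairs differed by 4.13 to 8.77 times sampling noise (chi-square divided by its degrees of freedom, genes of 20 counts or more), so no library repeated another of its group. The test was tried on simulated data.

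The markers and lists were chosen with earlier results of these data known. All 10 markers are named, with, per list, up to 4 called genes of smallest p and the 2 of highest CPM per kilobase, and the 3 genes most correlated with the marker of smallest p; other genes named were chosen after their values were seen. Alternatives were 3 other scalings, 2 other filters, DESeq2 1.42.0, limma-voom (limma 3.58.1), a replicate block, exact version matching, transcripts without summing, and leaving out each library. Leave-one-out fits of the pair ratios were added after the data had been seen.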

Additional observations from a re-analysis of the deposited data

Results flagged for a closer look

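Cd34 in DMSO replicate 3 was 42.54 CPM, apart from the other DMSO libraries, which had 45.57 to 46.51 CPM. Its gap to the nearest library exceeded Dixon's 95% critical value for 5 values. Of 32 groups of 5 libraries checked, 1 was picked out, and chance alone would give 1.6. Without that library the log2 fold change of Cd34 was 0.2567, the lowest of the values of 0.2567 to 0.2884 found on leaving out each library. Cd34 passed the test in each of these fits (edgeR, adjusted p at most 0.00186).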

How the results depend on the processing

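Cd34, Thy1 and Vcam1 were called under all 19 alternatives at the gene level, and the number of called markers was 3 or 4, the added marker being Pdgfra. Pdgfra passed the test with library size alone (-0.0812, adjusted p = 0.0247), with the DESeq2 Wald test (-0.0679, adjusted p = 0.0158) and without BPS replicate 5, and ranged from -0.0774 to -0.0537 on leaving out each library; it could not be tested with exact version matching. Cd34 did not pass when its leading transcript was tested alone (0.23, adjusted p = 0.141). The sign of Ly6a turned with DESeq2 size factors (-5e-04), library size alone (-0.0135), no filter (-4e-04), the DESeq2 Wald test (-4e-04) and exact version matching (-0.0029), and leaving out each library gave -0.0344 to 0.0195. Icam1 turned with library size alone (-0.0053) and ranged from -0.0152 to 0.0236 on leaving out each library. Dpp4 turned for its leading transcript (0.0331). With exact version matching Dpp4 was -2e-04 (SE 0.1679), against -0.2044 in the reported fit. The Pi16 to Cd55 ratio ranged from -0.0667 to 0.0472 without each library, and the Dpp4 share from 8.26 to 14 points, past the test once, without DMSO replicate 2 (adjusted p = 0.0476). The Cd34 to Thy1 and Ly6a to Thy1 ratios lost their calls in 7 and 8 of 10 such fits, with adjusted p up to 0.0794. Called transcripts of the markers numbered 1 to 2 on leaving out each library. Vcam1 was called each time, Thy1 was lost without each of the 5 DMSO replicates and BPS replicates 3 and 4 in turn, and the short Cd34 form was called without DMSO replicate 4. The 17 called list genes became 3 with exact version matching, which drops transcripts, and 10 to 16 on leaving out each library (10 without DMSO replicates 1, 2 and 4 and BPS replicate 3). The causes were not tested.

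Over all tested genes, DMSO and BPS libraries of the same replicate number had deviations from their group means that were nearly uncorrelated (-0.0433 to 0.0761). Libraries of different numbers were not compared, so this cannot exclude a shared source. With a replicate block all 3 calls among the markers held, while list genes called numbered 9 and all genes 374. Of the 17 list genes, 8 kept their call under the block, Col15a1, Mgp, Itgb1, Cd9, Pdgfa, F2rl1, Irf1, Cspg4 and Krt19 lost it (Pdgfa with an adjusted p of 0.076 and Itgb1 of 0.0556), and Mfap5 gained it. Calls over all genes were 712 in the reported fit, 949 by the DESeq2 Wald test, 328 with exact version matching and 449 to 774 without each library. Library size alone shifted the median log2 difference to -0.0144 and left 334 of 728 calls higher, against 447 of 712.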
